A study of Mus musculus with 12 samples.

Results

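7 genes on a focused liver array, taken by gene name or synonym, are described here: 3 regulators, Srebf1, Insig1 and Insig2, and 4 enzymes, Acly, Acaca, Fasn and Me1, which is listed under its older symbol Mod1. They are 7 of the 330 genes on the array, and each has 1 spot. Liver RNA came from 12 male ApoEshl mice, a line with a defect of Apoe that both groups carry, aged 7 to 8 weeks per the labels, which do not say at which point of the study. The fucoidan group, 6 mice, ate a high-fat diet with 5% of the brown-algal sulphated polysaccharide fucoidan for 12 weeks, and the HFD group, 6 mice, ate the high-fat diet alone for 12 weeks. Each mouse was hybridised alone in 1 colour, so precision is limited by how few arrays there are, and p-values reflect mouse-to-mouse spread. Whole liver was used, so fewer cells of a type and less RNA per cell cannot be told apart.

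Srebf1 encodes SREBP-1, a membrane-bound transcription factor that raises the genes of fatty acid synthesis once it is cut from the membrane, and in liver insulin raises its transcript. Insig1 and Insig2 encode endoplasmic reticulum proteins that hold SREBP and its escort SCAP back, and Insig1 is itself a target of SREBP. The enzymes form a chain in the cytosol: Acly cleaves citrate to acetyl-CoA, Acaca carboxylates acetyl-CoA to malonyl-CoA, Fasn builds palmitate from both, and Me1 supplies NADPH. All 4 enzymes are known SREBP-1 targets in mouse liver, and the question is whether they follow the regulators across mice and between diets.

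Sequences before RefSeq gene starts of Srebf1, Insig1 and the pair of enzymes with the highest correlation across mice are shown first. These are the genes the correlations turn on. The windows are the 250 bases before a RefSeq gene start on GRCm38.p6, 5′ to 3′ on the gene's strand: Srebf1 at chr11:60210472-60210721 (minus strand, 1 of its 3 RefSeq starts), Insig1 at chr5:28071162-28071411 (plus strand), Acaca at chr11:84195188-84195437 (plus strand) and Fasn at chr11:120824548-120824797 (minus strand). Capitals mark TCACCC, a core shared by many sterol regulatory elements, CACGTG, an E-box, and CCAAT, the box bound by NF-Y, each on either strand.
Srebf1: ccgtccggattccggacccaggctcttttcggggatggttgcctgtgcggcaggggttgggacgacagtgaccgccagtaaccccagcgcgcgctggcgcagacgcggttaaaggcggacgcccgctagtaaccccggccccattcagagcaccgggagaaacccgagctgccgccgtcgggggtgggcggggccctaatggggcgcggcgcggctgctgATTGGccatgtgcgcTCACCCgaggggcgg
Insig1: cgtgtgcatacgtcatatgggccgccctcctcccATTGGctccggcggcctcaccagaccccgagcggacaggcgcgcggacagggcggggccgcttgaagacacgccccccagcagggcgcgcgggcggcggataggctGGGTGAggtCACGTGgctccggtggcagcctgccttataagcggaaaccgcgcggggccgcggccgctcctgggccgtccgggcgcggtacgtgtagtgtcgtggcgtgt
Acaca: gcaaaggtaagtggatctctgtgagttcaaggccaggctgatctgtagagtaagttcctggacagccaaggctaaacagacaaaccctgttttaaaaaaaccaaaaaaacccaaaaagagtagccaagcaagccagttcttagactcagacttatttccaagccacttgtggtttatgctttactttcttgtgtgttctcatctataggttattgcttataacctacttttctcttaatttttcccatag
Fasn: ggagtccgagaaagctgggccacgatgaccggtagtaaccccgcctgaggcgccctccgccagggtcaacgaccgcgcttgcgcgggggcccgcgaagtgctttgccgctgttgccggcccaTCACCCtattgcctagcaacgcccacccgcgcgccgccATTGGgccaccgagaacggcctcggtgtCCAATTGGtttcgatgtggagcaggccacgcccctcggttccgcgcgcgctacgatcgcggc
In Insig1 CCAAT began 216 bases, the TCACCC core 110 bases and the E-box 101 bases before the start. In Fasn the core began 128 bases before the start and CCAAT began 90, 62 and 59 bases before it, the last 2 overlapping on opposite strands. In this Srebf1 window the core lay 15 bases and CCAAT 30 bases before the start, and the Acaca window held none of the 3 motifs.
All 7 genes matched the RefSeq table, with 12 windows. TCACCC was in 6 of these 12 windows, against 13.8% of all 32851 windows of that length, and CCAAT was in 6 of 12, against 33.8%. CACGTG was in 1 of 12, against 6.02%, and the longer element TCACNCCAC was in 0 of 12, against 1.05%. A match is a run of letters and not a measured binding site, and a window without one says nothing of SREBP. Whether a window, that of Acaca included, is a promoter used in liver was not tested.

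For each spot the raw table holds its foreground, its local background and a column for the difference of the 2. The spots of Srebf1 and Acly list a difference that is not foreground minus background within 0.5 on 12 of 12 arrays, and such spots are called failed below. On the spots of Insig1, Insig2, Acaca, Fasn and Me1 the listed difference was foreground minus background on all 12 arrays.
The departures differed between the failed spots. For Srebf1 the listed difference lay between −0.744% and 0.797% of the computed one, below it on 8 arrays and above it on 4. For Acly it lay below on 12 of 12 arrays, by −24.8% to −4.51%. The local background of the Acly spot, 80 to 96, ranked between 1st and 15th lowest of 198 spots of its set, whose median background was 97 to 112. Its foreground was 3053 both in fucoidan replicate 3 and in HFD replicate 4. The origin of these listed values is not given here, so Srebf1 and Acly are reported apart from the other 5 genes.

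**Figure D1:**
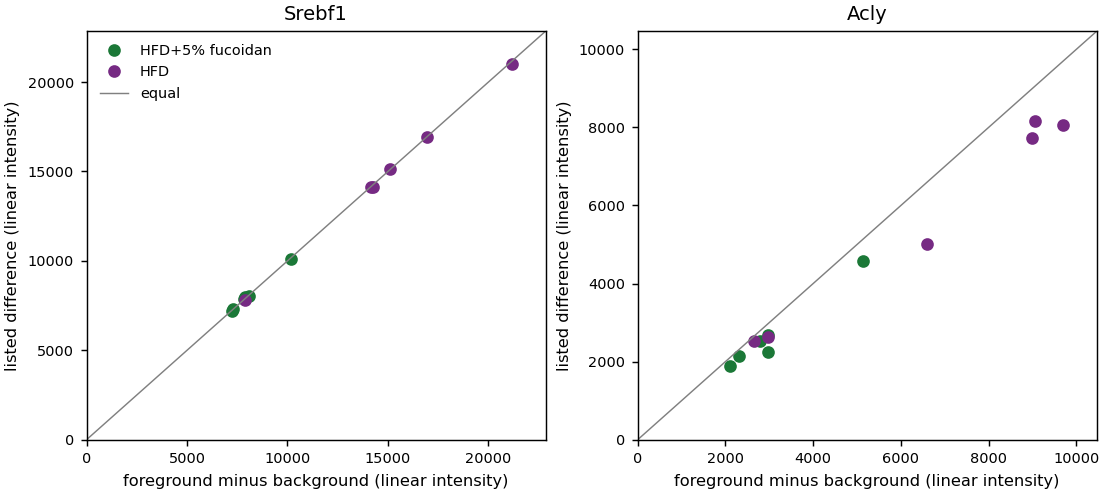
Listed difference (linear intensity, vertical) against foreground minus local background (linear intensity, horizontal) for Srebf1 and Acly, 1 point per mouse, with the line of equality. Srebf1 points lie on the line to within 0.797%, and all 12 Acly points lie below it.

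All 7 genes were above the detection limit, the mean plus 2 SD of 41 negative control and empty spots of an array, on 12 of 12 arrays. Their brightness spanned a wide range. Srebf1 stood at 52.7 to 78.9 times the limit in the fucoidan group and 57.8 to 163 times in the HFD group. Acaca stood at 1.15 to 2.09 times the limit in the fucoidan group and 1.2 to 1.76 times in the HFD group, so its values lie close to background. Fasn stood at 1.29 to 3.58 times the limit in the fucoidan group and 1.22 to 3.66 times in the HFD group. Signals of different probes are not compared as transcript levels here.
The label of liver was checked against hepatocyte markers, of which 6 of 6 on the array were tested, and no muscle marker on the array, 0 of 3, was bright enough to be tested. Median gene foreground was 196 ± 20.4 in the fucoidan group and 195 ± 25.2 in the HFD group (SD over 6 mice each, exact permutation p = 0.987, two-sided). On the slide, fucoidan mice took blocks 13 to 24 and HFD mice took blocks 1 to 12, and diet cannot be told apart from slide position.

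Across the diets, none of the 7 genes passed limma's test at an adjusted p of 0.05, 0 of 7 against 8.29% of the 181 genes tested, 15 genes. The largest differences were lower values of Srebf1 and Acly in the fucoidan group, both on failed spots, and they were the 2 of 7 with an unadjusted p under 0.05, against 22.1% of genes tested. At an adjusted p of 0.1 the same 2 of 7 passed, against 14.9%. The 5 genes on passed spots had log2 differences between −0.26 and 0.29. With failed spots left out before normalisation, 0 of 5 members and 0 of the 147 genes left passed in limma, 0% by the adjusted p. By an unadjusted p under 0.05, 0 of 5 members and 10.2% of genes passed.
Values below are log2 of background-corrected, quantile-normalised intensity unless called foreground or raw, and differences are fucoidan minus HFD.

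Srebf1 had foregrounds of 10263, 7384, 7351, 7954, 8171 and 8002 in fucoidan replicates 1 to 6, against 21237, 7983, 15197, 14266, 14340 and 17048 in HFD replicates 1 to 6. Fucoidan mice were low but for replicate 1, and 5 of 6 HFD mice lay above every fucoidan mouse, while HFD replicate 2 lay within the fucoidan range. Normalised, Srebf1 was 13.05 ± 0.26 in the fucoidan group and 13.65 ± 0.43 in the HFD group (SD, n = 6 each). The log2 difference was −0.60 (SE 0.19, 95% interval −1.02 to −0.18) with a limma adjusted p of 0.0835, and 6 of 6 fucoidan mice lay below the HFD mean. The call depended on the scaling. Unscaled it was −0.83 (limma adjusted p = 0.0164), scaled to the array median −0.82 (limma adjusted p = 0.0489), and scaled to housekeeping genes −1.04 (limma adjusted p = 0.0258). The housekeeping genes were themselves above 0 in 8 of 8 under quantile normalisation, with a median of 0.18. Without failed spots Actb had −0.19, Rplp0 −0.04 and Eef1a1 −0.03, the others lay above 0, and Gapdh went from 0.41 to 0.07. Scaling to the housekeeping genes put the median of all genes tested at −0.12. Relative to the median over all genes tested, Srebf1 was −0.92 under these 3 treatments and −0.64 under quantile normalisation. The 3 differ only by a constant per array, so that value is the same by construction and counts once. With 1 mouse left out the quantile-normalised difference ran from −0.75 without HFD replicate 2, where it passed (limma adjusted p = 0.0111), to −0.50 without HFD replicate 1 (limma adjusted p = 0.163), and it passed in no other such fit.

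Insig1, the SREBP target and inhibitor, had foregrounds from 293 to 935 with a median of 389.5 in the fucoidan group, against 389 to 717 with a median of 446.5 in the HFD group. The groups overlapped, with fucoidan replicate 3 and HFD replicate 5 the highest of each. Normalised values were 8.72 ± 0.37 in the fucoidan group and 8.98 ± 0.42 in the HFD group (SD, n = 6 each), a log2 difference of −0.26 (95% interval −0.73 to 0.20, limma adjusted p = 0.517). Without HFD replicate 5 it was −0.11. Raw foreground minus background had a fucoidan to HFD ratio of 0.993.
Insig2, the paralogue that in mouse liver has an insulin-repressed transcript, spread more. It had foregrounds of 2063, 1913, 789, 634, 515 and 678 in fucoidan replicates 1 to 6, against 552, 777, 714, 1310, 391 and 1166 in HFD replicates 1 to 6. Fucoidan replicates 1 and 2 stood above all other mice and the remaining 4 lay within the HFD range. Normalised values were 9.86 ± 0.82 in the fucoidan group and 9.57 ± 0.48 in the HFD group (SD, n = 6 each), a log2 difference of 0.29 (95% interval −0.48 to 1.06, limma adjusted p = 0.65). Without fucoidan replicate 2 it was 0.06.

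Acly, the citrate-cleaving enzyme, had foregrounds of 2176, 2397, 3053, 2880, 3061 and 5215 in fucoidan replicates 1 to 6, against 2723, 9082, 9771, 3053, 6677 and 9143 in HFD replicates 1 to 6. HFD replicates 1 and 4 lay among the fucoidan mice, and the other 4 HFD mice lay above all of them. Normalised, Acly was 11.54 ± 0.59 in the fucoidan group and 12.58 ± 0.79 in the HFD group (SD, n = 6 each). The log2 difference was −1.05 (SE 0.37, 95% interval −1.85 to −0.25) with a limma adjusted p of 0.0989, and 6 of 6 fucoidan mice lay below the HFD mean. With 1 mouse left out it ran from −1.26 to −0.89, the last without HFD replicate 2 (limma adjusted p = 0.19). It passed in 2 of these fits, without fucoidan replicate 6, at −1.25 (limma adjusted p = 0.0478), and without HFD replicate 4, at −1.26 (limma adjusted p = 0.0314). Under the other scalings it was −1.20 to −0.98 and did not pass.
Low Srebf1 and low Acly coincided in some mice and not in others. Fucoidan replicate 3 had the lowest Srebf1 of the 12 mice, 12.66, with an Acly of 11.11, and HFD replicate 4 had a Srebf1 of 13.37 with the lowest Acly of its group, 11.45. HFD replicate 2 had the lowest Srebf1 of its group, 12.93, and the highest Acly of its group, 13.34. HFD replicate 1 had the highest Srebf1, 14.08, with an Acly of 11.79.

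Acaca, the malonyl-CoA maker, ranged from 7.23 to 7.87 in the fucoidan group and from 7.41 to 7.96 in the HFD group, and the groups overlapped throughout. The log2 difference was −0.05 (95% interval −0.33 to 0.22, limma adjusted p = 0.807). It turned to 0.02 without fucoidan replicate 4 and to 0.0047 without HFD replicate 2.
Fasn, the palmitate synthase, ranged from 7.36 to 8.51 in the fucoidan group and from 7.49 to 9.11 in the HFD group, again with overlap, and HFD replicate 5 was the highest mouse. Its mean raw difference was 169.8 ± 121 in the fucoidan group and 166.5 ± 119 in the HFD group (SD, n = 6 each). The normalised log2 difference, −0.12 with SE 0.29, turned to 0.09 without HFD replicate 5.
Me1, the malic enzyme, had foregrounds of 1615, 1328, 1862, 1257, 1532 and 603 in fucoidan replicates 1 to 6, against 987, 1524, 961, 955, 273 and 1834 in HFD replicates 1 to 6. HFD replicate 5 was far below the other mice, and the groups overlapped. The log2 difference was 0.28 (95% interval −0.53 to 1.09, limma adjusted p = 0.661), or −0.05 without HFD replicate 5. Me2 and Me3, the mitochondrial malic enzymes, chosen after their values were seen, were above the limit on 0 of 12 arrays.

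**Figure D2:**
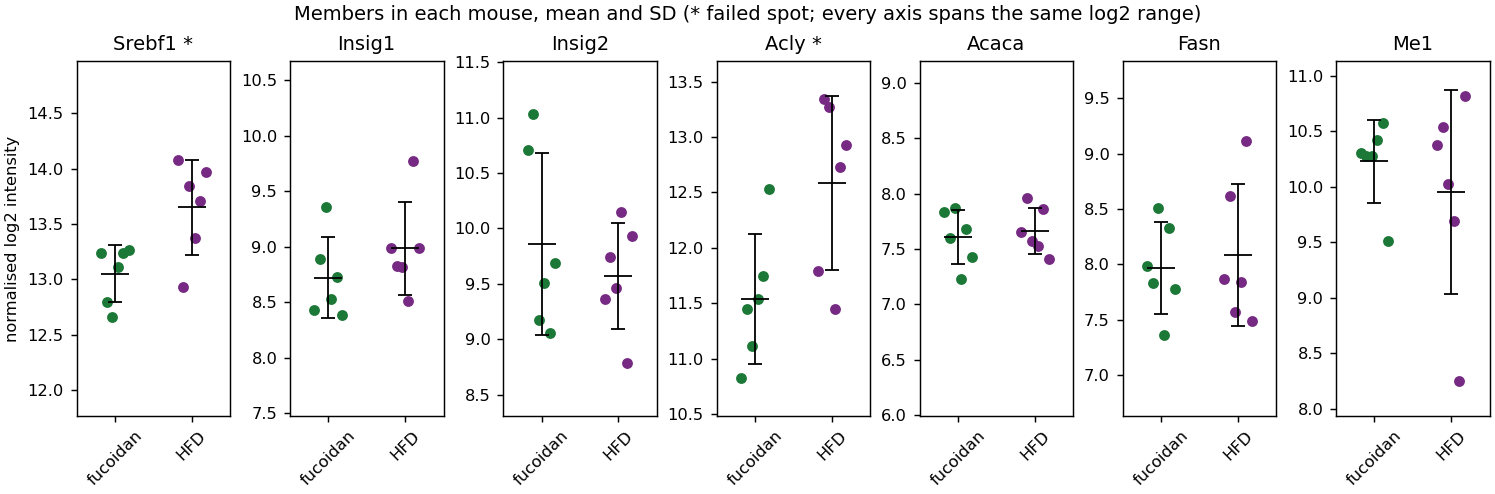
Normalised log2 intensity (vertical) of the 7 genes in each mouse, fucoidan left and HFD right, with mean and SD over 6 mice; asterisks mark failed spots. Srebf1 and Acly sit lower in the fucoidan group with overlap, and the other 5 genes overlap widely.

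**Figure D3:**
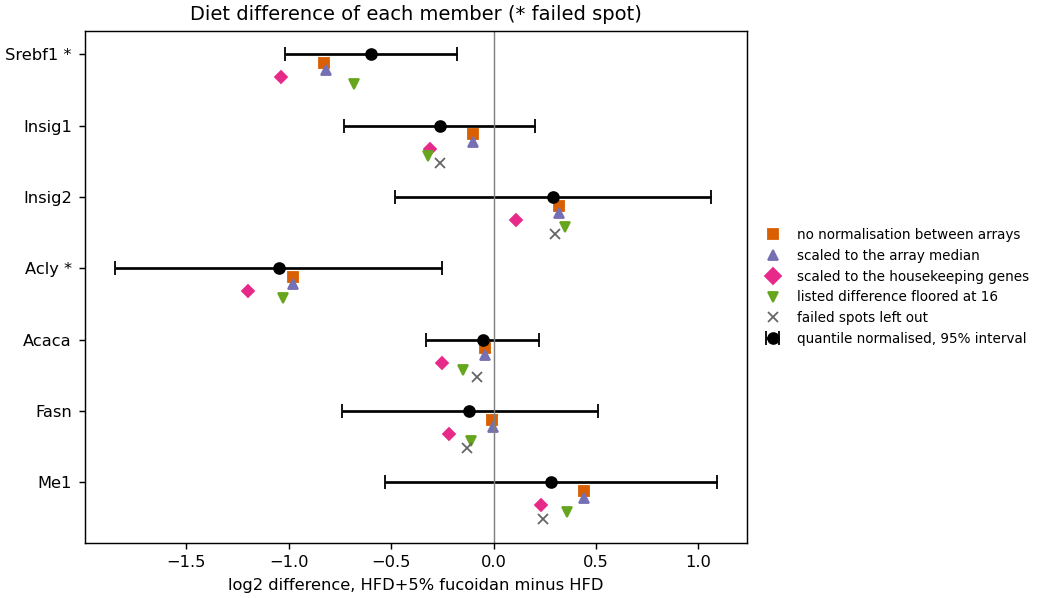
Log2 difference of fucoidan minus HFD (horizontal) for each gene, with the 95% interval of the quantile-normalised fit and the estimate under 5 other treatments of the data. Unadjusted intervals of Srebf1, −1.02 to −0.18, and Acly, −1.85 to −0.25, exclude 0, and those of the other 5 genes include it.

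The median log2 difference of the 7 genes was −0.12 and of the 5 on passed spots −0.05, against 0.04 over all 181 genes tested, and 5 of 7 values were below 0, against 40.9% of genes tested. Failed spots carried 18.8% of genes tested and 2 of the 7 members.
Markers of other cell types are given beside the Srebf1 and Acly values. The array holds 10 adipocyte markers, of which 2 were tested, and Cfd, adipsin, on a failed spot, fell by 0.60 (limma adjusted p = 0.006). Fabp4, a fatty acid binding protein on a passed spot, had 0.03 (SE 0.30, limma adjusted p = 0.935). The list's summed normalised intensity ran from 2970 to 4760 in the fucoidan group and from 5190 to 5760 in the HFD group. That sum mostly repeats the failed spot of Cfd, whose log2 means were 11.47 in the fucoidan group and 12.07 in the HFD group. Those of Fabp4 were 8.75 and 8.72. Adipoq, Lep, Plin1, Retn, Lipe, Slc2a4 and Ucp1 of this list were above the limit on 0 of 12 arrays. Pparg, also of this list, was above it on 5 of 12 arrays, too few to be tested. It was 7.47 ± 0.43 in the fucoidan group and 7.05 ± 0.30 in the HFD group (SD, n = 6 each). The summed leukocyte list, 2 of 4 markers tested and neither past the threshold, ran from 1770 to 2490 in the fucoidan group and from 1700 to 20200 in the HFD group. Its tested marker on a passed spot, Cd36, had −0.07 (SE 0.36, limma adjusted p = 0.888). The other, on a failed spot, was 10.17 ± 0.42 in the fucoidan group and 10.93 ± 1.64 in the HFD group (SD, n = 6 each). That spread in the HFD group was the widest of the list, so the summed range there mostly repeats this failed spot. Whether Cd36 reports leukocytes in whole liver was not tested. Of the 6 hepatocyte markers, 3 on failed spots, 1 passed, Cyp7a1, the bile acid enzyme, on a failed spot, which fell by 2.51 (limma adjusted p = 0.00163), and 4 had an unadjusted p under 0.05. Their values lay above 0 for 4 and below 0 for 2, and their summed intensity ran from 83200 to 118000 in the fucoidan group and from 86500 to 129000 in the HFD group. The part of these lists in the Srebf1 and Acly values was not tested.

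Among the neighbouring steps of the pathway 1 tested gene passed, on a failed spot. The share over all 181 genes tested was 8.29%, or 0% of 147 with failed spots left out. In further fatty acid synthesis and substrate supply 0 of 4 tested genes passed, with values of −0.21 (SE 0.67) for Acss2, which makes acetyl-CoA from acetate, on a failed spot, and 0.21 (SE 0.22) for Pklr, the liver pyruvate kinase. In the sterol arm 0 of 2 passed. Acat2, the cytosolic acetoacetyl-CoA thiolase of cholesterol synthesis, on a failed spot, was 13.51 ± 0.21 in the fucoidan group and 14.53 ± 0.81 in the HFD group (SD, n = 6 each), with a limma adjusted p of 0.0699. Its groups did not overlap, as for 6.08% of genes tested, and the exact permutation test adjusted to 0.0356. Among upstream factors 0 of 4 passed, led by −0.44 (SE 0.26) for Cebpb, a liver leucine-zipper factor, with −0.13 for Rxra and 0.13 for Rxrb, partners of nuclear receptors. In insulin and AMPK control 1 of 9 passed, Socs3, which restrains cytokine and insulin signals and which fell by 1.54 (SE 0.14, limma adjusted p = 1.89e-05) on a failed spot. No gene of the glyceride synthesis list was on the array, 0 of the list.

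The second question was whether the enzymes follow the regulators from mouse to mouse. Correlations used deviations from the group mean over 12 mice, with 100000 within-group permutations, two-sided, and adjustment over 540 relations of the 3 regulators with all 180 other genes tested. No regulator-enzyme pair passed, 0 of 12 with adjusted p from 0.615 to 0.998, against 0.185% of the 540 relations. One pair, Insig1 with Fasn, had an unadjusted permutation p under 0.05, 1 of 12 against 7.22%. The sign of r was the same in both groups for 6 of 12 pairs.

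For Srebf1, r was near 0 or below it with every enzyme. It was −0.0018 with Acly (rho 0.16, permutation p = 0.997), −0.47 with Acaca (rho −0.49, permutation p = 0.125), −0.43 with Fasn (rho −0.44, permutation p = 0.239) and −0.03 with Me1 (rho 0.22, permutation p = 0.939). These r were 0.17, −0.41, −0.28 and −0.46 without the 2 mice farthest from the Srebf1 median. With Acaca the sign was negative in both groups, −0.34 in the fucoidan group and −0.61 in the HFD group, with exact permutation p = 0.503 and 0.189. With Acly it was 0.42 in the fucoidan group and −0.19 in the HFD group (exact permutation p = 0.422 and 0.754). Uncentred over all 12 mice, Srebf1 and Acly gave r = 0.43 (permutation p = 0.16), which holds the difference between the group means as well.

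Insig1 went with Fasn at r = 0.67 (permutation p = 0.0272, adjusted p = 0.615), the highest of Insig1's 180 correlations by size, with rho 0.53 (permutation p = 0.0967). It was 0.66 in the fucoidan group and 0.68 in the HFD group (exact permutation p = 0.144 and 0.133). The relation rested on fucoidan replicate 3 and HFD replicate 5, since r was 0.06 without them. With Acaca, Insig1 gave 0.46 (rho 0.46, permutation p = 0.153), or 0.09 without the same mice.
HFD replicate 5 also set the relation with Me1. Insig1 with Me1 gave r = −0.39 (rho 0.01, permutation p = 0.263), and 0.49 without that mouse (permutation p = 0.138). In HFD replicate 5 Insig1 and Fasn were the highest of the 12 mice, 9.77 and 9.11, and Insig2 and Me1 the lowest, 8.79 and 8.25. With Acly, Insig1 gave r = 0.0036 (rho −0.0035, permutation p = 0.992).

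Insig2 gave r = −0.25 with Acly (rho −0.17, permutation p = 0.418), −0.09 with Acaca (rho −0.09, permutation p = 0.794), −0.42 with Fasn (rho −0.28, permutation p = 0.142) and 0.29 with Me1 (rho 0.07, permutation p = 0.279). Without fucoidan replicates 1 and 2, its 2 farthest mice, these were −0.03, −0.55, −0.66 and 0.44. With Fasn it was negative in both groups, −0.33 in the fucoidan group and −0.62 in the HFD group (exact permutation p = 0.514 and 0.197), and no Insig2 pair passed.

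**Figure D4:**
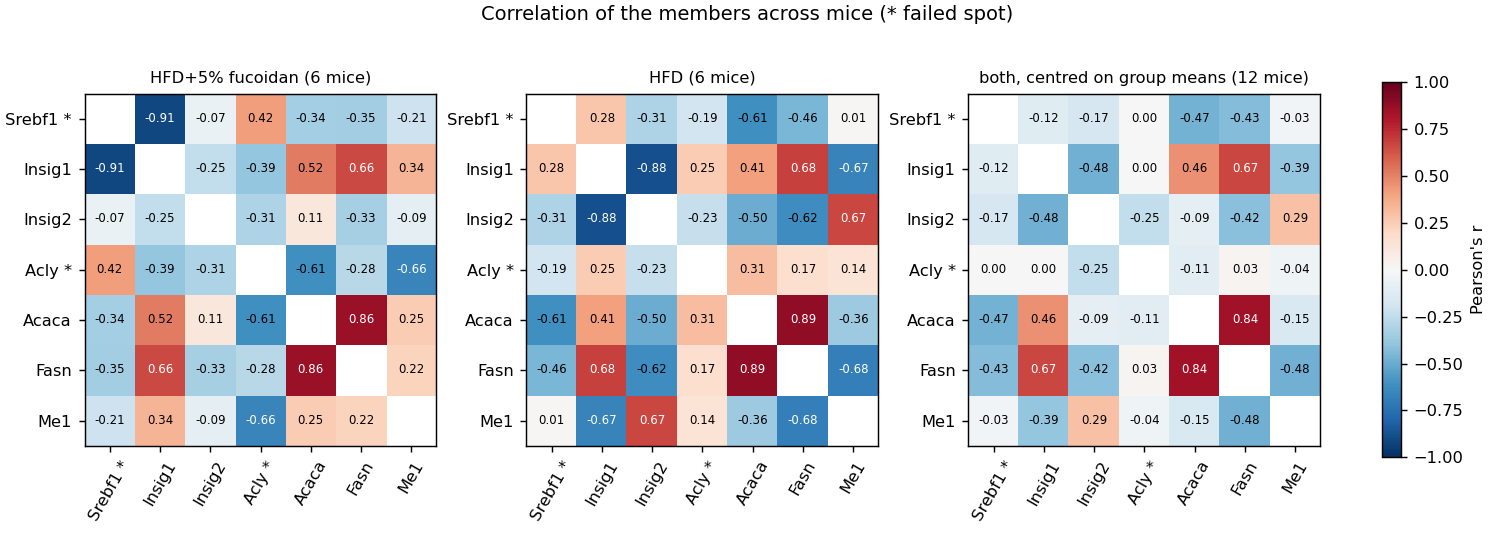
Pearson's r for each pair of the 7 genes, by colour and number, across 6 fucoidan mice, across 6 HFD mice, and across 12 mice after subtracting group means; asterisks mark failed spots. Acaca with Fasn is high in each panel, 0.86, 0.89 and 0.84.

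The other 9 pairs among the 7 genes were added after the data were seen, with adjustment over 1260 relations of the 7 genes, of which 0% passed. Acaca and Fasn, successive enzymes of the pathway on passed spots, had the highest r of the 21 pairs, 0.84 (permutation p = 9e-04, adjusted p = 0.209), with rho 0.90 (permutation p = 0.00019, adjusted p = 0.0966). It was 0.86 in the fucoidan group (exact permutation p = 0.0306) and 0.89 in the HFD group (exact permutation p = 0.0236), where 6 mice allow no p below 0.00139. Leaving out 1 mouse at a time gave 0.81 to 0.90, and leaving out the 2 mice farthest from the Acaca median gave 0.79. For Acaca, no other gene among 180 correlated more strongly by size. Both genes are dim, and the 35 correlations of the members with array-wide medians gave adjusted permutation p of at least 0.921. With the array's median background, r was 0.22 for Acaca (rho 0.19) and 0.10 for Fasn (rho 0.15), but 0.80 and 0.57 without the 2 arrays of most extreme background. For Srebf1 it was −0.56 (rho −0.39), or −0.84 without those arrays. The part of the background in these correlations was not tested.
Acly, the step before Acaca, had r = −0.11 with Acaca (rho −0.09, permutation p = 0.722) and 0.03 with Fasn (rho 0.06, permutation p = 0.946).
Among the regulators, Insig1 and Insig2 gave −0.48 (rho −0.43, permutation p = 0.124, adjusted p = 0.786), or 0.0028 without the 2 mice farthest from the Insig1 median. Srebf1 and Insig1 gave −0.91 in the fucoidan group (exact permutation p = 0.0111) and 0.28 in the HFD group (exact permutation p = 0.589). The difference between those was not tested, and over 12 mice r was −0.12 (rho −0.12, permutation p = 0.736, adjusted p = 0.977).

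**Figure D5:**
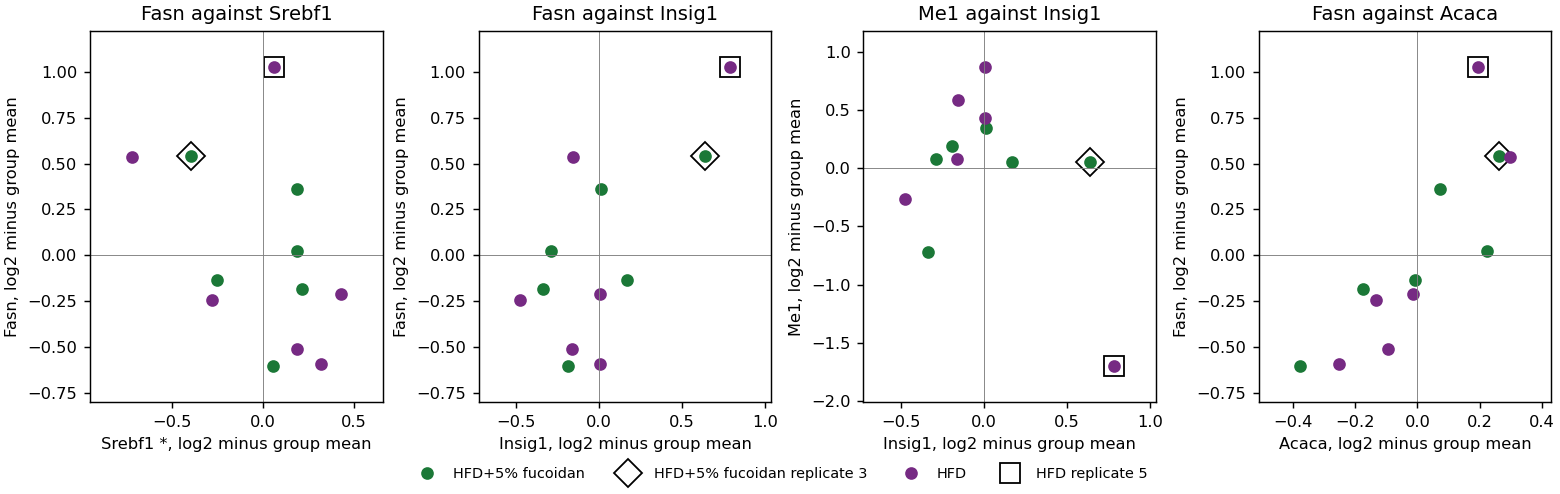
Deviations of log2 intensity from the group mean for 4 pairs, 1 point per mouse; open symbols mark fucoidan replicate 3 and HFD replicate 5. Fasn is higher where Acaca is higher in both groups (r = 0.84), and its relation with Insig1 (r = 0.67) rests on the marked mice.

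The genes whose pattern was most like each member over the 12 mice were, for Acaca, Fasn and Fbp1, the gluconeogenic bisphosphatase, at r = 0.82. For Fasn they were Adipor2, an adiponectin receptor, at 0.94, and Acaca. For Srebf1, Ptpn1, a tyrosine phosphatase, had r = 0.90 (rho 0.88). Ptpn1 is dim, with a median foreground of 145.5 against detection limits of 121 to 143 on the arrays. For Insig1, Fasn had the highest r, as given above. For Insig2 they were Rab4a, a small GTPase, at 0.81 and Prkag2, an AMPK subunit, at 0.80. For Acly they were Ffar1, a fatty acid receptor on a failed spot, at 0.72 and Serpina12, vaspin, at 0.64. For Me1 they were Tnfrsf1b, a TNF receptor, at 0.90 (rho 0.63) and Crk, an adaptor protein, at 0.78 (rho 0.42). Crk gave −0.54 in the fucoidan group and 0.93 in the HFD group, and 0.07 at its lowest with 1 mouse left out.
None of these r passed after adjustment over the 1260 relations.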

How the data were processed

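Per the labels' protocols, 10 micrograms of liver RNA from each of 12 mice were labelled with 1 dye for the focused array. A GenePix 4000B scanner read it at 532 nm, and GenePix Pro 6.0.1.27 measured spots and their local background, per the file headers. The deposited table gives intensity on a linear scale, with no scaling between arrays. What the authors did afterwards is not given. The deposited value table of the series has no gene names and was not used.

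Spots were read in Python 3.11.15 (pandas 2.3.3, figures with matplotlib 3.10.9). In R 4.3.3 with limma 3.58.1, intensities were corrected with normexp (offset 50), quantile normalised over 354 gene spots and turned to log2. The offset can draw differences of dim genes towards 0. With an offset of 16 Acaca was −0.07 and Fasn −0.12, against −0.05 and −0.12 with 50. Unscaled, Acaca was −0.04 and Fasn −0.0084. Scaled to housekeeping genes they were −0.25 and −0.22, where the median of all genes tested was −0.12. Whether quantile normalisation drew these 2 towards 0 was not tested. Genes above the detection limit on at least 6 of 12 arrays, 181, were tested with lmFit and eBayes (two-sided, no block) and Benjamini-Hochberg adjustment, threshold 0.05. 1 missing foreground of a gene outside the 7 was filled from its listed difference and background. Correlations used seed 1. The scripts were tested on simulated data.

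The members and lists were chosen with earlier results of these data known. The rule for named genes took the 7 members, the genes past the threshold or the 2 of largest difference of each pathway list, and the 2 genes of highest r with each member; some genes that it takes are not reported here. Replicate numbers were checked for pairing: deviations of same-numbered mice correlated above 0.1 in 2 of 6 pairs, so the numbers were not taken to pair mice.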

Additional observations from a re-analysis of the deposited data

Results flagged for a closer look

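1 of 14 sets of 6 values, the 7 genes in each group, held a mouse far from the others. Me1 in fucoidan replicate 6 was 9.51, against 10.28 to 10.58 in the other 5 fucoidan mice, and its gap took 0.722 of the group's range, past Dixon's critical value. Chance flags about 1 in 20 such sets. Insig1 in HFD replicate 5, with a gap of 0.621, fell just short of that limit.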

How the results depend on the processing

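The count of members past the threshold, 0, was 1 with the listed difference floored at 16, unscaled, or scaled to the array median or to housekeeping genes, Srebf1 in each case, and 2, Srebf1 and Acly, at a threshold of 0.1. It was 0 to 1 when 1 mouse was left out. The count over all genes tested, 15, was 25 with the listed difference, 0 without failed spots, 27 at a threshold of 0.1, 9 with the replicate block, and 9 to 17 when 1 mouse was left out. With the block, which leaves the difference itself unchanged, Srebf1 had a limma adjusted p of 0.0513 and no member passed. In the 75 other fits of the 7 differences none changed direction. Among these, the exact permutation test, eBayes with trend and robust settings, and the block leave each difference unchanged by construction. They could not turn a sign. Leaving out 1 mouse gave −0.11 to 0.02 for Acaca, turned without fucoidan replicate 4 or HFD replicate 2, −0.24 to 0.09 for Fasn, turned without fucoidan replicate 4 or HFD replicate 5, and −0.05 to 0.46 for Me1, turned without HFD replicate 5. No regulator-enzyme pair passed under any alternative run, 0 in each. The runs on 1 group alone could hardly have passed a pair. There, 6 mice allow no permutation p below 0.00139 before adjustment over 540 relations.

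Of 173 recomputed correlations 22 changed sign. Srebf1 with Acly was 0.15 with the listed difference, 0.16 by Spearman, 0.43 uncentred, 0.17 without 2 mice and 0.42 in the fucoidan group. Srebf1 with Me1 was 0.02 with the listed difference, 0.22 by Spearman and 0.01 in the HFD group. Insig1 with Acly was −0.0042 without background correction, −0.1 with the listed difference, −0.0035 by Spearman and −0.39 in the fucoidan group. Insig1 with Me1 was 0.06 unscaled, 0.01 by Spearman, 0.69 without 2 mice and 0.34 in the fucoidan group. Insig2 with Acaca was 0.21 unscaled and 0.11 in the fucoidan group, and with Me1 −0.09 in the fucoidan group. Srebf1 with Insig1 was 0.15 uncentred and 0.28 in the HFD group, and Insig1 with Insig2 0.0028 without 2 mice. With 1 mouse left out, r ran from −0.2 to 0.39 for Srebf1 with Acly, −0.18 to 0.26 for Srebf1 with Me1, −0.3 to 0.18 for Insig1 with Acly, −0.55 to 0.49 for Insig1 with Me1, −0.3 to 0.05 for Insig2 with Acaca, −0.09 to 0.41 for Insig2 with Me1 and −0.31 to 0.13 for Srebf1 with Insig1. The causes were not tested.

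Fits of each spot on its own give no further value, since each member has 1 spot, and the value table was not run, since its rows have no names. The alternatives on pairs other than regulator with enzyme, and the raw ratios, were chosen after seeing the data. Acaca and Fasn lie near the detection limit, where small differences are hard to see.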
